A study of Mus musculus with 4 samples.

Results

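The 8 genes described here encode scavenger and endocytic receptors that liver sinusoidal endothelial cells (LSECs) carry on their surface, namely *Stab1*, *Stab2*, *Mrc1*, *Lyve1*, *Fcgr2b*, *Scarb1*, *Scarf1* and *Lrp1*. They were chosen by name as known LSEC receptors, with earlier results of these data known. They are 8 of the 18373 genes measured. All 8 were among the 13628 genes that passed the filter on low counts and were tested. The libraries came from primary LSECs of 8-week-old Balb/c mice, which were selected with anti-CD146 beads, kept in culture for 24 h and then given siRNA for 48 h on collagen-coated plates. The comparison was of 2 libraries from cells given a control siRNA (NC) with 2 labelled as cells given siRNA against the long noncoding RNA *Airn* (si*Airn*). The study used RNA-seq of these cells to ask whether *Airn* keeps LSECs differentiated. None of the cells carried an engineered allele, the model was transfected cells in a dish at day 3, and the labels call the replicates biological without saying whether they came from separate animals or cultures, so p-values measure the spread between these libraries, whatever its source.

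LSECs line the liver sinusoids and are the chief scavenger cells of the blood for soluble waste. Their receptors bind modified proteins, glycans, immune complexes and lipoproteins, are gathered into clathrin-coated pits, release their cargo in early endosomes and mostly return to the surface. A high level of these receptors belongs to the differentiated LSEC, and LSECs are known to lose them in culture and in liver disease, when the cells become more like ordinary capillary endothelium.

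The libraries held between 17308382 and 18371959 estimated counts. *Airn* itself was counted 7 and 3 times in NC, whereas the libraries labelled si*Airn* had 11 and 9, so it was not lower there, and the counts were too small to be tested. The knockdown that the labels name is thus not seen in these counts, and every direction given here rests on the group labels as deposited. The labels of both si*Airn* libraries name the same siRNA, si*Airn*1, whereas the treatment label and the methods speak of separate siRNAs, so which siRNA each library received is unsettled. All 16 genes of the LSEC marker list were measurable, and the endothelial genes *Cdh5* (VE-cadherin) and *Kdr* (VEGFR2) stood at 631 and 94.9 FPKM in NC. FPKM are the values scaled to transcript length and library size that the authors deposited.

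Among the receptors, *Fcgr2b*, the inhibitory Fc receptor through which LSECs take up small immune complexes, had the highest level. Its FPKM was 374 ± 28.7 in NC (SD, n = 2), which only 1.19% of all genes exceeded. *Lyve1*, a hyaluronan receptor, followed at 88.7 ± 0.495, and the stabilins, which are multi-ligand clearance receptors, stood at 81.9 ± 0.919 (*Stab1*) and 79.2 ± 6.32 (*Stab2*). *Scarb1*, the HDL receptor SR-BI, was at 66.0 ± 1.82, and *Scarf1*, the receptor SREC-I for acetylated LDL and dying cells, was at 44.8 ± 4.02. *Mrc1*, the mannose receptor, was at 28.4 ± 1.45, and *Lrp1*, a very large receptor of the LDL receptor family, was lowest at 10.1 ± 0.0354, a level exceeded by 36.8% of genes. In this order only the ranges of the neighbours *Stab1* and *Stab2* overlapped in NC. In si*Airn* the ranges of *Stab1*, *Stab2*, *Scarb1* and *Lyve1* each overlapped with that of the next, so that *Lyve1* no longer stood above the stabilins, while *Fcgr2b* kept the top place at 220.1 ± 0.368 and *Lrp1* the last at 14.7 ± 2.68.

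**Figure D1:**
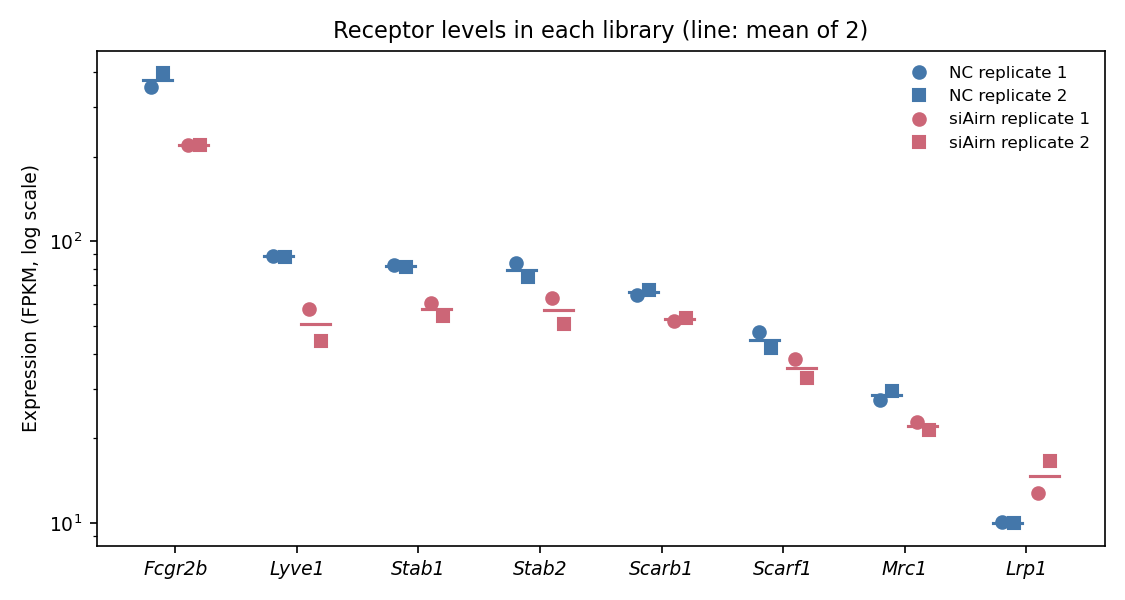
Level of each receptor in each of the 4 libraries, on a log axis of FPKM, with NC and siAirn libraries as separate points and the mean of each group as a line. The 7 receptors other than Lrp1 have both siAirn points below both NC points, and Lrp1 has both above.

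In the comparison of si*Airn* with NC, 6 of the 8 receptors fell (*Fcgr2b*, *Lyve1*, *Stab1*, *Mrc1*, *Scarb1* and *Scarf1*), 1 rose (*Lrp1*), and *Stab2* did not pass the test. The falls ranged from 22.3% for *Scarb1* to 44.0% for *Lyve1*, and *Lrp1* rose by 45.9%. The call is an adjusted p under 0.05 in edgeR's quasi-likelihood test, adjusted over all 13628 genes; by the same rule 8.56% of all genes tested were lower and 8.27% higher. The median log2 fold change of the 8 receptors was -0.38, against 0.00 for all genes tested. All 7 receptors other than *Lrp1* had both si*Airn* libraries below both NC libraries, as did 31.9% of all genes, and *Lrp1* had both above, as did 30.8%. At the study's own threshold, a fold change over 1.4 with an unadjusted p under 0.05, *Fcgr2b*, *Lyve1* and *Stab1* were lower, with a background of 4.72%, and *Lrp1* was higher, with a background of 5.25%.

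These directions are relative to all genes. Scaled to the pan-endothelial genes instead, which moves the median of all genes to 0.45, the median of the receptors was 0.06. *Mrc1*, *Scarb1* and *Scarf1* changed sign (0.05, 0.09 and 0.07), and *Stab2* stood at 0.20, *Stab1* at -0.11 and *Fcgr2b* at -0.36. None of these passed the test, whereas *Lyve1* was still lower (-0.40, adjusted p = 0.0316, edgeR) and *Lrp1* higher (1.01, adjusted p = 2.7e-06, edgeR). The standard errors of the 8 receptors were larger there, 0.15 to 0.17 against 0.06 to 0.12 in the reported fit. On that scale 0.741% of all genes tested were called lower and 48.9% higher, so a call in the higher direction is common there, and the counts of list genes given on that scale are to be read against these shares. When single libraries were left out, the number of receptors called lower was 1 without NC replicate 1, 0 without NC replicate 2, 7 without the first si*Airn* replicate and 5 without the second. Without NC replicate 1 only 40 genes of the whole table passed the test, and without NC replicate 2 none of 13913 did, although 3106 (22.3%) had an unadjusted p under 0.05, among them all 8 receptors.

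**Figure D2:**
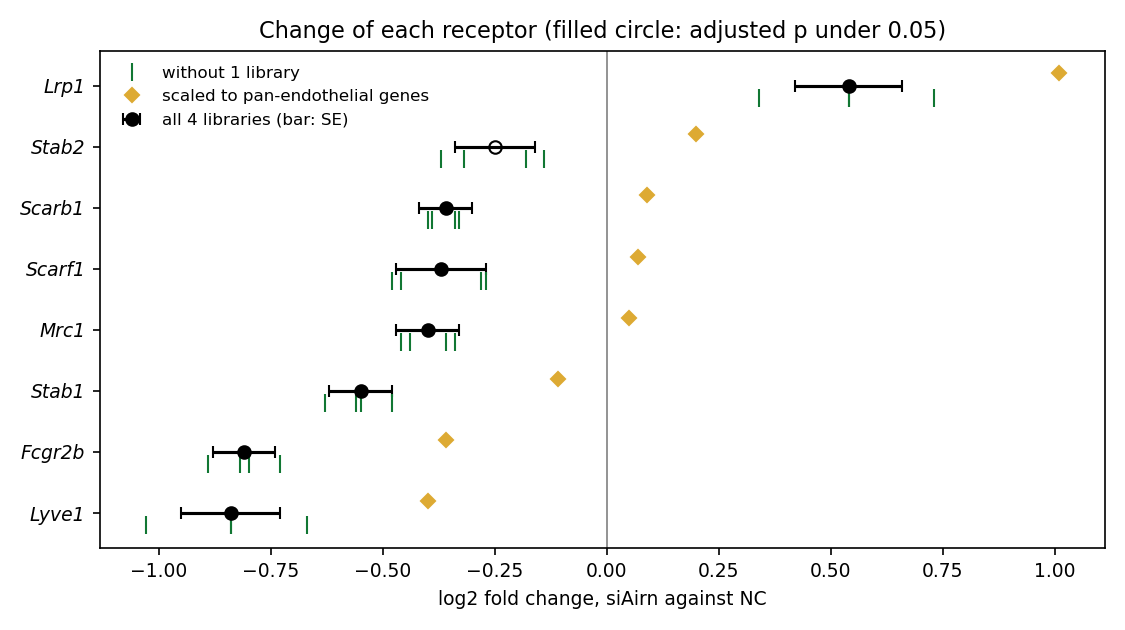
Log2 fold change (siAirn minus NC) of each receptor with its standard error from edgeR's quasi-likelihood fit, on a linear axis, with filled circles for an adjusted p under 0.05, ticks for fits without 1 library and diamonds for the value scaled to pan-endothelial genes. Lyve1 (-0.84) and Fcgr2b (-0.81) lie lowest, Stab2 (-0.25) is the only open circle, and Lrp1 (0.54) lies alone on the higher side; scaled to pan-endothelial genes, Mrc1, Scarb1, Scarf1 and Stab2 change sign.

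**Figure D3:**
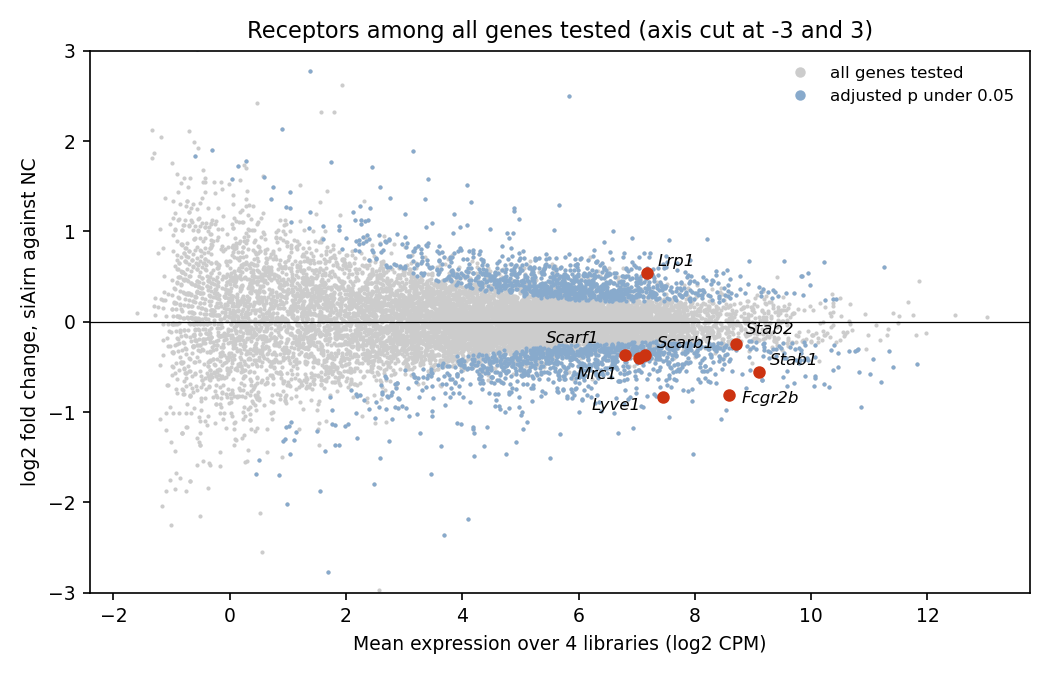
Log2 fold change (siAirn minus NC, linear axis) against the log2 of the mean CPM for the 13628 genes tested, with the 8 receptors named; 20 genes beyond 3 in either direction are not drawn. The receptors lie among the more abundant genes, 7 of them below 0 and Lrp1 above; scaled to pan-endothelial genes, Mrc1, Scarb1, Scarf1 and Stab2 change sign.

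Lengths of DNA just before and at the start of transcription are shown for *Stab1*, *Stab2*, *Fcgr2b* and *Lrp1*. Among the receptors with a promoter entry, these hold the clearest changes in both directions and the stabilin pair. CACCC is marked because the study centres on KLF2, a zinc-finger factor of the KLF family, which is known to bind these letters. The sequences are those of RefSeq on GRCm38.p6, from 250 bases before to 50 bases after the annotated start, in the direction of transcription. Of the 8 receptors 5 had an entry, and *Lyve1*, *Scarb1* and *Scarf1* had none. Capitals mark CACCC, or GGGTG where the letters lie on the other strand.
Stab1: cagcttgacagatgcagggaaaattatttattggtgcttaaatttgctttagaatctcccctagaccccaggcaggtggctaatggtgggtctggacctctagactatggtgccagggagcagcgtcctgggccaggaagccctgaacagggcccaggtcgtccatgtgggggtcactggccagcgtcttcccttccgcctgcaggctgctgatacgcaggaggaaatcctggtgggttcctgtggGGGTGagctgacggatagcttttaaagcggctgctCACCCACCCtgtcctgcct
Stab2: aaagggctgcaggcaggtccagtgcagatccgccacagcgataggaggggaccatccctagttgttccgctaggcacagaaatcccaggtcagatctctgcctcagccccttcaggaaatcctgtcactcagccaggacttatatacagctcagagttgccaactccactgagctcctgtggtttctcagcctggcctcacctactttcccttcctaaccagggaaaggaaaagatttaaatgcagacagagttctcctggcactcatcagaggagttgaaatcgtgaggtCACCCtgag
Fcgr2b: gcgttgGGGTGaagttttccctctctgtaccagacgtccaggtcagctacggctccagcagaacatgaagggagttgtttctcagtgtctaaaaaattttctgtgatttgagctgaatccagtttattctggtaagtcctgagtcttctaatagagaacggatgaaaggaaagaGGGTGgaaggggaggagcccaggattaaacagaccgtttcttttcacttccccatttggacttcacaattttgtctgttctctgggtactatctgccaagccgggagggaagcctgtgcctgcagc
Lrp1: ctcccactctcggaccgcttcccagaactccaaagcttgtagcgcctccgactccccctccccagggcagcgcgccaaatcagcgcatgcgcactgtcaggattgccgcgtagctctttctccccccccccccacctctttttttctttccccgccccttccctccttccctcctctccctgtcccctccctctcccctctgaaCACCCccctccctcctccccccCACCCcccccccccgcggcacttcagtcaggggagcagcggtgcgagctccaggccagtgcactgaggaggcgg
These regions are chr14:31168592-31168891 on the minus strand for *Stab1*, chr10:87007893-87008192 on the minus strand for *Stab2*, chr1:170976022-170976321 on the minus strand for *Fcgr2b* and chr10:127621099-127621398 on the minus strand for *Lrp1*.

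CACCC letters were present 3 times in the *Stab1* window, 2 of them overlapping, 2 times each in those of *Fcgr2b* and *Lrp1*, and 1 time in that of *Stab2*. The *Mrc1* window (chr2:14229164-14229463, plus strand) held none. Of 32851 RefSeq promoters of the same length, 57.5% held CACCC on either strand. Whether these letters are bound or bear on the changes was not tested. The letters AGGAAG, read by ETS factors, stood 3 times in the *Mrc1* window and 1 time each in those of *Stab1* and *Stab2* (35.4% of all promoters hold them on either strand), and AGATAA, read by GATA factors, stood in none of the 5 (11.2% of all promoters). The window of *Lrp1* had 16 CG pairs and 67.7% G and C, whereas the others had 3 to 7 CG pairs and 48.0% to 57.3% G and C. *Klf2* itself had a log2 fold change of -0.19 with an adjusted p of 0.284 in edgeR's test.

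The stabilins are large receptors that clear modified lipoproteins, collagen propeptides and matrix proteins, and *Stab2* is also the main LSEC receptor for circulating hyaluronan. *Stab1* had 658 and 651 CPM (counts scaled to the library size) in NC and 469 and 424 in si*Airn*. Both si*Airn* libraries were lower, and *Stab1* fell by 31.8% (log2 fold change -0.55, SE 0.07, adjusted p = 0.00751, edgeR). *Stab2* had 475 and 429 CPM in NC and 409.6 and 350.1 in si*Airn*. The groups lay close to each other without overlapping, and the log2 fold change was -0.25 (SE 0.09, adjusted p = 0.107, edgeR). This value hung on single libraries, since it was -0.37 (adjusted p = 0.0208) without si*Airn* replicate 1 and -0.14 (adjusted p = 0.372) without replicate 2 of that group. Corrected for GC content and transcript length, it was -0.40 and passed the test (adjusted p = 0.0455).

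For *Stab2* the deposited FPKM tell a larger difference than the counts. Its FPKM were 83.7 and 74.8 in NC, against 63.2 and 51.0 in si*Airn*, which gives a log2 ratio of the means of -0.47. The transcript length that links each count to its FPKM was 5613 and 5648 bases in the NC libraries and 6597 and 6917 in the si*Airn* libraries, that is 117.2% and 122.8% of the NC mean. Of 10165 genes with at least 100 counts and an FPKM of at least 1 in every library, 61 (0.6%) had a length ratio farther from 1. For the other receptors this length stayed between 99.2% and 102.2% of the NC mean. Such a length is usually an average over isoforms, weighted by their estimated shares, and *Stab2* has 7 annotated transcripts; whether its isoforms differed between the groups was not tested. On counts, the ratio of *Stab1* to *Stab2* was 1.39 and 1.52 in NC and 1.14 and 1.21 in si*Airn*; on FPKM it was 0.986 and 1.09 against 0.958 and 1.06, with overlapping groups.

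**Figure D4:**
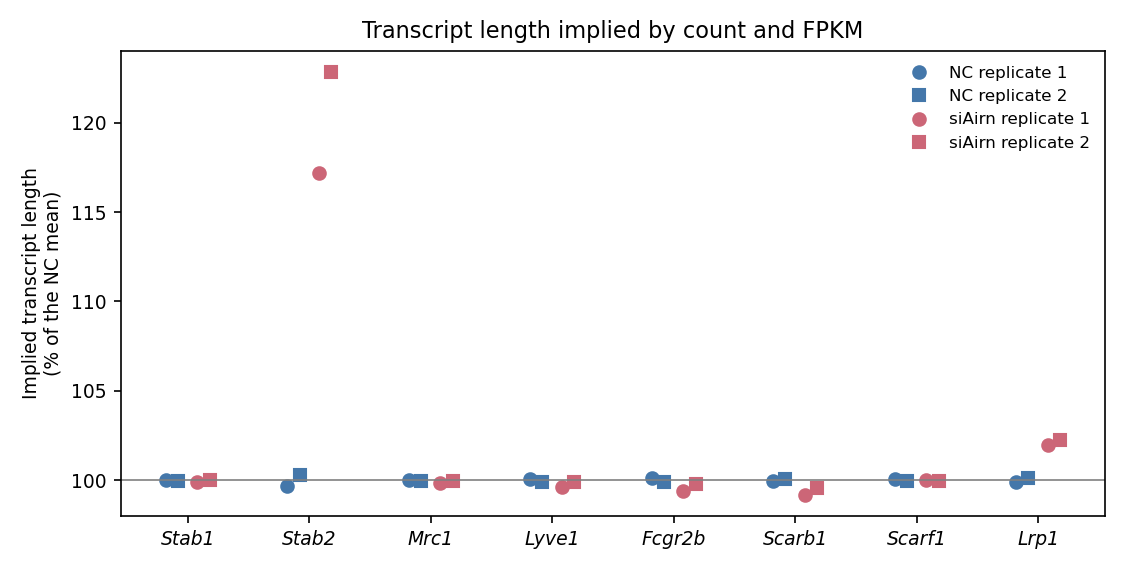
Transcript length implied by the ratio of count to FPKM in each library, as a percentage of the NC mean (linear axis), for the 8 receptors. The siAirn libraries stand at 117.2% and 122.8% for Stab2, while the other receptors stay between 99.2% and 102.2%.

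Among 12 ligands and adaptors of the stabilins, 1 fell and 3 rose (median log2 fold change 0.08). Of all genes tested, 8.56% fell and 8.27% rose, so the 1 fall is near that share. *Sparc*, a matrix glycoprotein that STAB1 takes up, fell from 1840.1 ± 51.9 to 1369.8 ± 76.7 FPKM (SD, n = 2 each; log2 fold change -0.46, adjusted p = 0.00805, edgeR), but stood at -0.01 (adjusted p = 0.951) when scaled to pan-endothelial genes, where 8 of the 12 passed the test, all higher. *Reln*, *Thbs1* and *Postn*, matrix proteins made by several liver cells, rose with log2 fold changes of 0.98, 0.66 and 0.48.

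*Lyve1* encodes a hyaluronan-binding receptor that marks LSECs of the middle of the liver lobule and lymphatic endothelium. It had 224 and 223 CPM in NC and 141 and 109.5 in si*Airn*. The NC libraries were nearly equal, both si*Airn* libraries were lower and si*Airn* replicate 2 was the lowest. *Lyve1* fell by 44.0% (log2 fold change -0.84, SE 0.11, adjusted p = 0.00853, edgeR), and 1.74% of all genes tested had a lower log2 fold change. Within libraries, its FPKM ratio to *Stab2*, the other hyaluronan receptor, was 1.06 and 1.18 in NC, against 0.913 and 0.870 in si*Airn*. On counts, which are not divided by transcript length, the ratio was 0.472 and 0.520 against 0.343 and 0.313. Whether the length shift of *Stab2* also altered its counts was not tested.

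Of 11 other genes of hyaluronan synthesis, binding and breakdown that were tested, 1 fell and 3 rose, and their median was 0.53. Of all genes tested, 8.56% fell and 8.27% rose, so the 1 fall is near that share. Scaled to pan-endothelial genes, 6 of the 11 passed the test, all higher. *Cd44*, the broadly expressed hyaluronan receptor of activated and migrating cells, had 30.1 and 32.3 FPKM in NC and 46.9 and 59.5 in si*Airn*. It rose in both si*Airn* libraries (log2 fold change 0.73, SE 0.11, adjusted p = 0.0116, edgeR), opposite to *Lyve1*. *Vcan*, a hyaluronan-binding matrix proteoglycan, rose from 1.19 to 2.27 FPKM (log2 fold change 1.10) and *Layn*, a further hyaluronan receptor, from 10.6 to 14.3 (0.33). *Hyal2*, a hyaluronidase of the cell surface, fell from 65.8 to 53.5 FPKM (log2 fold change -0.33, adjusted p = 0.0192, edgeR; 0.11 when scaled to pan-endothelial genes).

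*Mrc1* encodes CD206, which takes up glycoproteins that end in mannose, and also denatured collagen and lysosomal enzymes. It had 144 and 155 CPM in NC and 117 and 110.4 in si*Airn*, lower in both. *Mrc1* fell by 24.1% (log2 fold change -0.40, SE 0.07, adjusted p = 0.0148, edgeR), but stood at 0.05 when scaled to pan-endothelial genes. The other members of the mannose receptor family were scarce here. *Pla2r1*, the most abundant of them, had 3.91 FPKM in NC and 3.38 in si*Airn* (log2 fold change -0.21, adjusted p = 0.229, edgeR), and *Mrc2* and *Ly75* were below 1 FPKM in both groups.

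*Fcgr2b* encodes the only inhibitory Fc gamma receptor, and LSECs are known to hold most of what the liver has. It had 462 and 516 CPM in NC and 277 and 281 in si*Airn*. The si*Airn* libraries were nearly equal and far below both NC libraries. *Fcgr2b* fell by 42.9% (log2 fold change -0.81, SE 0.07, adjusted p = 0.00496, edgeR), which 2.03% of all genes tested undercut. It was called in 3 of the 4 fits that leave out a library, the most of any receptor, and lost its call only without NC replicate 2 (adjusted p = 0.0741). Of the 50-base windows of its longest coding transcript, 11.4% occur in other genes too, 4.75% in *Fcgr3*, so some reads could have been shared out between genes; *Fcgr3* had at most 159 estimated counts in any library, against at least 4978 for *Fcgr2b*.

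Of the 7 other Fc receptor genes and their signalling partner SHIP, 3 fell, against 8.56% of all genes tested, and the median was -0.64. *Fcgrt*, the neonatal Fc receptor that recycles IgG and albumin, had 106 and 109 FPKM in NC, against 74.3 and 67.9 in si*Airn*, and fell in both (log2 fold change -0.64, SE 0.07, adjusted p = 0.00526, edgeR). *Fcer1g*, the signalling chain of activating Fc receptors, fell from 59.1 to 41.4 FPKM and *Fcgr1*, the high-affinity IgG receptor, from 2.19 to 1.01 (log2 fold changes -0.56 and -1.15). Scaled to pan-endothelial genes, *Fcgrt* and *Fcer1g* did not pass the test (-0.19 and -0.13). On that scale *Fcgr1* was still lower (-0.72, adjusted p = 0.0499, edgeR), 1 gene of the list was higher, and the median was -0.19. *Fcer1g* is also in the macrophage list, and *Fcgr1* is known chiefly from macrophages and monocytes.

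*Scarb1* encodes SR-BI, which draws cholesterol esters from HDL without taking up the whole particle. It had 155 and 162 CPM in NC and 121 and 125 in si*Airn*, with a gap between the groups several times the spread within them. *Scarb1* fell by 22.3% (log2 fold change -0.36, SE 0.06, adjusted p = 0.0145, edgeR), and stood at 0.09 when scaled to pan-endothelial genes. Among 10 other genes of HDL and cholesterol exchange that were tested, 1 passed the test, near the 8.56% of all genes called lower. This was *Gpihbp1*, which carries lipoprotein lipase across capillary endothelium, with 251 and 252 FPKM in NC and 129.8 and 101 in si*Airn* (log2 fold change -1.18, SE 0.11, adjusted p = 0.00496, edgeR). Scaled to pan-endothelial genes, 1 of the 10 genes was called lower and 3 higher. *Apoe*, a ligand of several lipoprotein receptors and the most abundant gene of this list, had 313 and 258 FPKM (log2 fold change -0.33, adjusted p = 0.0687).

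*Scarf1* encodes SREC-I, which binds acetylated LDL, heat shock proteins and C1q on dying cells. It had 134 and 119 CPM in NC and 105 and 90.3 in si*Airn*. The groups did not overlap, but the values within each lay about as far apart as the gap between them. *Scarf1* fell by 22.7% (log2 fold change -0.37, SE 0.10, adjusted p = 0.0412, edgeR), and stood at 0.07 when scaled to pan-endothelial genes. It was called in only 1 of the 4 fits that leave out a library, with log2 fold changes from -0.48 to -0.27. It also lost its call after correction for GC content and transcript length (-0.23, adjusted p = 0.163, edgeR).

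Of 16 other scavenger receptor genes that were tested, 3 passed the test, all lower (8.56% of all genes tested were), and the median was -0.02. *Msr1*, the class A macrophage scavenger receptor, had 34.2 and 45.7 FPKM in NC and 22.6 and 23.3 in si*Airn* (log2 fold change -0.85, SE 0.13, adjusted p = 0.0112, edgeR). *Cxcl16*, a membrane-bound chemokine that also binds oxidised LDL and the most abundant gene of the list, fell from 128 to 94.6 FPKM, and *Cd68*, a lysosomal macrophage glycoprotein, from 40.3 to 25.6 (log2 fold changes -0.52 and -0.70). Scaled to pan-endothelial genes, *Msr1* was still lower (-0.41, adjusted p = 0.0293), *Cxcl16* and *Cd68* did not pass the test (-0.07 and -0.25), and 7 genes of the list were higher. *Msr1* and *Cd68* also belong to the macrophage list.

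*Lrp1* moved the other way. It encodes a receptor of the LDL receptor family that clears chylomicron remnants, protease-inhibitor complexes and coagulation factor VIII, and that hepatocytes, fibroblasts and macrophages carry as well as LSECs. It had 118 CPM in each NC library, and 149 and 196 in si*Airn*. The NC libraries were equal at this precision, both si*Airn* libraries were higher, and si*Airn* replicate 2 was the highest. *Lrp1* rose by 45.9% (log2 fold change 0.54, SE 0.12, adjusted p = 0.0277, edgeR), and 6.32% of all genes tested had a higher value. The FPKM ratio of *Stab1* to *Lrp1*, which does not depend on library size, was 8.19 and 8.10 in NC and 4.72 and 3.26 in si*Airn*.

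The size of the rise in *Lrp1* depended on 1 library, since the log2 fold change was 0.34 (adjusted p = 0.0338, edgeR) without si*Airn* replicate 2 and 0.73 without the first replicate. Its longest coding transcript, of 14888 bases, is by far the longest of the 8. The GC content of that transcript is 57.9%, within a range of 43.4% to 58.7% over the 8. Log2 fold changes over all genes went up with transcript length (Spearman rho 0.369 across 12845 genes, which are not independent replicates). They went down with GC content (rho -0.333). After correction for both, *Lrp1* stood at 0.38 and did not pass the test (adjusted p = 0.103).

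In the LDL receptor family, 2 of the 15 other genes tested fell and 1 rose, with a median of 0.07, near the 8.56% and 8.27% of all genes for counts this small, whereas scaled to pan-endothelial genes 9 passed the test, all higher. *Lrp6*, a Wnt co-receptor, rose with 8.39 and 8.42 FPKM in NC and 12.3 and 13.3 in si*Airn* (log2 fold change 0.45, SE 0.06, adjusted p = 0.00854, edgeR). *Lrp5*, a further Wnt co-receptor, fell from 53.8 to 45.9 FPKM (log2 fold change -0.24, adjusted p = 0.0465), but stood at 0.21 when scaled to pan-endothelial genes. *Lrp10*, the most abundant of the family here, had 84.1 FPKM in NC and 74.5 in si*Airn* (-0.17, adjusted p = 0.110).

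Among 14 ligands of LRP1 that were tested, 2 fell and 1 rose, again near the 8.56% and 8.27% of all genes, and scaled to pan-endothelial genes 1 fell and 7 rose. *A2m*, the protease inhibitor alpha-2-macroglobulin, fell from 1.93 to 0.70 FPKM (log2 fold change -1.50, adjusted p = 0.00683, edgeR) and *Tfpi*, an inhibitor of the coagulation cascade, from 70.0 to 53.8 (-0.37, but 0.08 when scaled to pan-endothelial genes). *Thbs1*, thrombospondin, rose from 158 to 257 FPKM.

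Of 27 genes of the clathrin-mediated endocytosis that these receptors share, 7 fell and 5 rose, with a median of -0.06. Of all genes tested, 8.56% fell and 8.27% rose. Scaled to pan-endothelial genes, 14 of the 27 passed the test, all higher, with a median of 0.39. *Dab2*, the adaptor that links receptors of the LDL receptor family to clathrin, had 83.8 and 77.9 FPKM in NC, against 61.0 and 52.9 in si*Airn*, and fell in both (log2 fold change -0.52, SE 0.08, adjusted p = 0.0116, edgeR). Scaled to pan-endothelial genes, *Dab2* stood at -0.08 (adjusted p = 0.691). *Epn1*, which bends the membrane of the pit, and *Ap2s1*, the small subunit of the AP-2 adaptor, fell by 0.43 and 0.41 on the log2 scale, and *Clta*, clathrin light chain a and the most abundant gene of the list, by 0.25, but these were at 0.02, 0.05 and 0.21 when scaled to pan-endothelial genes. *Aak1*, a kinase of AP-2, rose from 1.17 to 1.92 FPKM (log2 fold change 0.76). *Cltc*, the clathrin heavy chain, and *Ap2b1*, a further AP-2 subunit, rose too (log2 fold changes 0.33 and 0.25). Subunits of clathrin and AP-2 thus moved in both directions.

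Of 24 genes of early and recycling endosomes, 2 fell and 2 rose (median -0.11), shares near those of all genes tested (8.56% lower and 8.27% higher), whereas scaled to pan-endothelial genes 10 passed the test, all higher. *Eea1*, the tether of early endosomes, rose from 10.5 to 14.6 FPKM (log2 fold change 0.48, adjusted p = 0.00863, edgeR) and *Stam*, which sorts ubiquitinated cargo, from 20.3 to 27.1 (0.36). *Rab5c*, a GTPase of early endosomes, fell from 232 to 195 FPKM and *Snx3*, a retromer cargo adaptor, from 272 to 236 (-0.29 and -0.25, but 0.16 and 0.20 when scaled to pan-endothelial genes). *Rab7*, of late endosomes, was the most abundant at 429.8 and 478 FPKM (0.02).

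Summed over the 8 receptors, the level was 759 and 788 FPKM in NC and 528 and 494 in si*Airn*, with *Fcgr2b* the largest contributor. The receptors took 0.235% and 0.234% of all counts in NC, against 0.182% and 0.170% in si*Airn*. The mean of their log2 CPM, each centred on the 4 libraries, was 0.19 in both NC libraries and -0.16 and -0.23 in si*Airn*. Of 6859 genes with a mean of at least 10 FPKM, the 5 whose centred profile over these 4 libraries lay nearest to it were *Neurl3*, *Gnai2*, *Bcas3*, *Rcan3* and *Tacc1*, at Euclidean distances of 0.017 to 0.022, with log2 fold changes between -0.39 and -0.36. With only 4 libraries many genes have such a profile.

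Markers of the cell types that such a culture can hold also differed between the groups, the endothelial and macrophage lists with more genes lower, like the receptors, and the stellate cell list with more genes higher. In bulk RNA, fewer cells of a type and less RNA per cell cannot be told apart. Of the 17 pan-endothelial genes, 12 fell, with a median of -0.50 and summed FPKM of 4528 to 4799 in NC and 3017 to 3525 in si*Airn*. *Cdh5* fell from 631 to 435 FPKM (log2 fold change -0.58, adjusted p = 0.0134, edgeR; -0.13 on the scale these genes set). Of the 16 genes of the LSEC marker list, 9 fell and 1 rose, with a median of -0.42 and sums of 2024 to 2038 and 1558 to 1649, whereas scaled to pan-endothelial genes 3 fell and 4 rose, with a median of 0.03. Among them *Kdr* had 94.9 and 104 FPKM (0.02, adjusted p = 0.901), and *Clec4g*, a C-type lectin of sinusoidal endothelium, fell from 37.3 to 15.3 FPKM (-1.33). The medians of both lists were below that of the receptors (-0.38).

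Macrophages also express *Mrc1*, *Stab1* and Fc receptors. Of the 19 Kupffer cell and macrophage genes tested, 12 passed the test, all lower, with a median of -0.71 and summed FPKM of 344 to 416 in NC and 223 to 265 in si*Airn*, and no gene of the list was at 0 in every library. Scaled to pan-endothelial genes, 3 of the 19 passed the test, all lower, with a median of -0.28. *Adgre1* (F4/80) was at 1.86 FPKM in NC and 1.09 in si*Airn* and *Itgam* (CD11b) at 1.19 and 1.10, below the 8 receptors, but other genes of the list were as high as some of them, with *Cd68* at 40.3 and *Msr1* at 40.0 FPKM in NC, and the lysozyme gene *Lyz2* was the highest at 109.6 and 76.4. The part of these cells in the falls of *Mrc1*, *Stab1* and *Fcgr2b* was not tested. The stellate cell and fibroblast genes had a median of 0.35, and 4 of 14 passed the test, all higher (14 of 14 and a median of 0.81 when scaled to pan-endothelial genes), with summed FPKM of 869.9 to 1072 in NC and 1034 to 1309.9 in si*Airn*, which overlap. *Acta2* (smooth muscle actin) rose from 189 to 251 FPKM (log2 fold change 0.33, adjusted p = 0.0256, edgeR). *Tagln*, the most abundant gene of this list, had 452 FPKM in NC and 492 in si*Airn*. Its groups overlapped (0.08, adjusted p = 0.733, edgeR). The hepatocyte genes summed to 386 to 499 FPKM in NC and 548 to 714 in si*Airn*, with *Alb* (albumin) at 288 and 419 (adjusted p = 0.0598) and a median of 0.40. Of these 14 genes 1 passed the test, higher, near the background of 8.27%, and 10 did when scaled to pan-endothelial genes. Their part and that of the stellate cell genes in the rise of *Lrp1* was not tested. Of the lymphocyte list 4 of 12 genes passed the filter, none of them called by edgeR (2 had an unadjusted p under 0.05) or DESeq2 (1 had), and the whole list summed to 3.16 to 3.69 FPKM in NC and 5.37 to 5.53 in si*Airn*, and the 6 cholangiocyte genes had a median of -0.11. Scaled to pan-endothelial genes, 2 lymphocyte genes and 2 cholangiocyte genes were called higher.

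**Figure D5:**
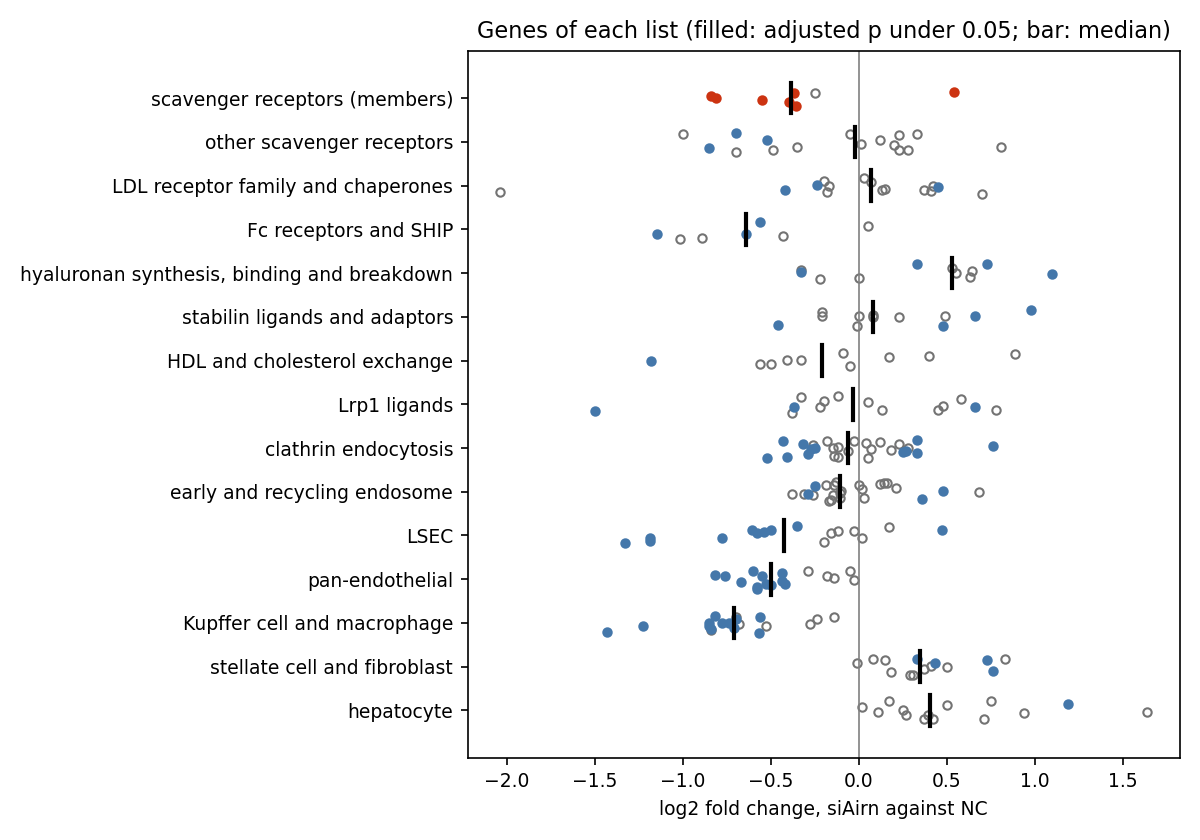
Log2 fold changes (siAirn minus NC, linear axis) of the tested genes of each list, as points per gene, filled for an adjusted p under 0.05, with the median of each list as a bar. The receptors have a median of -0.38, between those of the LSEC list (-0.42) and of all genes tested (0.00), the Kupffer cell and macrophage list lies lower (-0.71), and the stellate cell list lies higher (0.35); scaled to pan-endothelial genes, the median of all genes is 0.45 and that of the receptors 0.06.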

How the data were processed

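RNA-seq of primary mouse LSECs was analysed in 4 libraries (single-end 50-base reads, BGISEQ-500), 2 labelled NC and 2 labelled si*Airn*, grouped by their labels. The authors deposited, per gene and library, estimated counts that are not normalized (76.5% to 76.8% of them whole, within 1e-09) and values read here as FPKM, since the header does not name their unit. Their group means were not used. The submitters' processing notes name Bowtie2, BWA, RSEM and hg19, a human build, without versions or roles; the annotation and the use of strand are not given in the sources used here, so reads of antisense partners cannot be told apart (1.09% of the exonic bases of *Stab1*, 1.61% of *Stab2* and 2.68% of *Fcgr2b* lie under genes of the other strand).

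Estimated counts were rounded and fitted in R 4.3.3 with edgeR 4.0.16 (TMM factors 0.985 to 1.02, filterByExpr, glmQLFit and glmQLFTest, two-sided, no covariate), with Benjamini-Hochberg adjustment over 13628 genes. The F statistic gave the standard errors. For the RNA-seq, the methods give a threshold and name no test of its own. CPM use TMM library sizes, and the upper limit behind a count of 0 (3 counts) is 0.163 to 0.173 CPM, for counting error only. GC content, transcript lengths and shared windows came from GENCODE M21 and promoters from RefSeq. Alternatives were DESeq2 1.42.0, upper-quartile and pan-endothelial scaling, 2 other filters, the likelihood-ratio test, limma 3.58.1 on log2(FPKM + 1) and log2(FPKM + 0.1) where a gene's mean FPKM reached 1, a replicate block, a correction for GC content and length, 2 other thresholds and leaving out each library. The calculations were tested on simulated data.

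The receptors, lists and tests were chosen with earlier results of these data known. The genes named are the receptors; up to 4 genes of each pathway list with the largest change among those past the test without overlap, and the most abundant one; the 5 genes most like the receptors; and, of the cell type lists, the most abundant genes and *Adgre1*, *Itgam*, *Acta2*, *Cdh5* and *Kdr*. *Airn*, *Klf2*, *Fcgr3*, *Mrc2*, *Ly75*, *Clec4g*, *Cltc* and *Ap2b1* were named in addition, after their values were seen. Some genes the rule covers are given only in counts, and some items are not reported here.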

Additional observations from a re-analysis of the deposited data

How the results depend on the processing

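The count of 6 receptors called lower and 1 higher was the same with DESeq2, upper-quartile normalization, both other filters and the likelihood-ratio test. Receptors called lower numbered 1 when scaled to pan-endothelial genes, 3 with limma on log2(FPKM + 1), 0 with limma on log2(FPKM + 0.1), 3 at the study's threshold and 3 at an adjusted p under 0.01, and 0 to 7 when each library was left out. Receptors called higher numbered 0 with either limma fit, once corrected for GC content and length and at an adjusted p under 0.01, and 0 to 1 without each library. All 8 had an unadjusted p under 0.05 in both limma fits, as did 34.1% and 32.9% of all genes, and limma on log2(FPKM + 0.1) called 7 genes of 11667. The median of the receptors (main value -0.38) was 0.06 when scaled to pan-endothelial genes, -0.49 once corrected for GC content and length, alone or with the replicate block, and -0.46 to -0.38 without each library. Scaled to pan-endothelial genes, signs turned to positive for *Stab2* (0.20), which had not passed the test, and, among named genes that had, for *Mrc1* (0.05), *Scarb1* (0.09), *Scarf1* (0.07), *Lrp5* (0.21), *Hyal2* (0.11), *Tfpi* (0.08), *Epn1* (0.02), *Ap2s1* (0.05), *Clta* (0.21), *Rab5c* (0.16), *Snx3* (0.20), *Ctsl* (0.11), *Neurl3* (0.08), *Gnai2* (0.06), *Bcas3* (0.06), *Rcan3* (0.08) and *Tacc1* (0.09), by construction of that scale. Genes called over the whole table numbered 2294 in the reported fit, 1802 with DESeq2 (2114 without an adjusted p), 6763 when scaled to pan-endothelial genes, 3140 by the likelihood-ratio test, 1242 and 7 with limma, 1021 once corrected for GC content and length and 0 to 2410 without each library; the cause was not tested. The labels do not say that replicate numbers pair the libraries; same-numbered libraries deviated with a correlation of 0.233, from 2 pairs. With a replicate block, 7 receptors were lower, *Stab2* included (adjusted p = 0.00229, edgeR), and 1 higher, the median was -0.39, and 4841 genes were called. With the block and the correction together, 4033 of 12845 genes were called, among them all 8 receptors, *Lrp1* included (0.37, adjusted p = 3.07e-05, edgeR). Fits without a library assume that the lone library of its group varies like the other group.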
